A study of Mus musculus with 15 samples.

Results

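The Wnt ligand genes Wnt3, Wnt4, Wnt5a, Wnt7a, Wnt7b, Wnt9a and Wnt10a and the Wnt target genes Axin2 and Ccn4 (Wisp1 in older annotation) were followed in mouse cortex after magnetic stimulation. They were taken by symbol and are 9 of the 56748 gene identifiers in the deposited count table. The genes were chosen by values measured in these same libraries, and which of the comparisons was used is not recorded. Their levels and differences between groups are therefore given as a description, with no test. The mice were wild-type C57BL/6J animals, and cortex was collected 3 hours after a single session of repetitive transcranial magnetic stimulation, in which magnetic pulses drive the cortex through the skull. In 5 mice the session was intermittent theta-burst stimulation (iTBS), in 5 mice continuous theta-burst stimulation (cTBS), and in 5 mice a sham session. The dissected area is called somatosensory in the titles of the samples but sensorimotor in the design of the series. Each library is bulk RNA of 1 animal, so a lower level can come from fewer cells of a type or from less RNA per cell, which cannot be told apart.

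Wnt proteins are secreted, lipid-modified signals that bind Frizzled receptors. In the beta-catenin branch a scaffold complex built around axin and APC marks beta-catenin for destruction. A Wnt signal through Frizzled and an LRP co-receptor stops this, and beta-catenin then acts in the nucleus with TCF and LEF factors. Axin2 is induced by this branch and feeds back to destroy beta-catenin, so its transcript is a common readout of the pathway. Ccn4 encodes a matricellular protein first described as induced by Wnt1. In the brain, Wnt7a and Wnt7b from neural cells act on endothelial cells and are needed for blood vessel growth and the blood-brain barrier.

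Total counts per library ran from 15385070 to 47807723. Markers of cortical excitatory neurons had mean levels of 6.99 ± 0.11 in iTBS, 6.97 ± 0.12 in cTBS and 6.95 ± 0.23 in sham (log2 CPM, SD, n = 5 each; CPM is the count scaled to library size), and 12 of 12 were present in every library. Markers of neighbouring tissue varied between libraries. All 9 thalamic markers used were highest in sham 2, where they summed to 851 CPM against at most 568 CPM in the other libraries. Choroid plexus markers summed to 7.27 to 82.0 CPM in iTBS, 10.5 to 273 CPM in cTBS and 8.43 to 295 CPM in sham, and 2 of 10 were at 0 in an iTBS library. RNAs retained in the nucleus (Malat1 and 10 others) had a mean level of 7.96 ± 0.48 in iTBS, 7.10 ± 0.52 in cTBS and 7.90 ± 0.64 in sham (log2 CPM, SD, n = 5 each). In the edgeR quasi-likelihood fit over 22998 genes, 0% of genes passed at a Benjamini-Hochberg adjusted p of 0.05 in each of the 3 comparisons. At an unadjusted p of 0.05 the fit had 443 genes (1.93%) between iTBS and sham, 5623 (24.4%) between cTBS and sham and 7047 (30.6%) between iTBS and cTBS. DESeq2 called 0, 132 and 2618 genes in these comparisons, in that order, and limma-voom with quality weights called 0, 5461 and 6853.

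All 9 members passed the filter on low counts. Levels between genes were compared per length, as CPM divided by exon length in kilobases (RPKM), over the 15 libraries. Wnt9a was at 5.69 ± 0.85 RPKM, Axin2 at 5.26 ± 0.33 and Wnt7b at 5.12 ± 0.79 (SD, n = 15), and these neighbours differed by less than their spread. Wnt4 followed at 4.12 ± 0.73 RPKM and Wnt10a at 3.64 ± 0.84, again closer together than their spread. Wnt7a was at 2.42 ± 0.31 RPKM, below Wnt10a in 14 of 15 libraries. Ccn4 was at 1.45 ± 0.35 RPKM, below Wnt7a in 15 of 15 libraries, and Wnt5a at 1.17 ± 0.10. Wnt3 was lowest at 0.589 ± 0.24 RPKM and rested on 19 to 109 counts per library. Genes on the opposite strand overlap Wnt5a, Wnt7b and Axin2 in the annotation. Without a stated strand setting their reads cannot be told apart, but over all libraries they held 122, 481 and 100 counts, against 4590 for Wnt5a, 12690 for Wnt7b and 14391 for Axin2.

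The directions of the members are listed beside those of all tested genes. The log2 fold change was below 0 for 5 of 9 in iTBS relative to sham, against 50.5% of all tested genes, and for 5 of 9 in cTBS relative to sham, against 53.5%. In iTBS relative to cTBS it was below 0 for 8 of 9, against 46.1%. Among the 16883 tested genes with a mean of at least 1 CPM, as every member had, 9327 were below 0 in that comparison. The members were chosen from these libraries, so nothing is read from these counts. No member had all cTBS libraries below all sham libraries, which 0.713% of all tested genes showed.

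**Figure D1:**
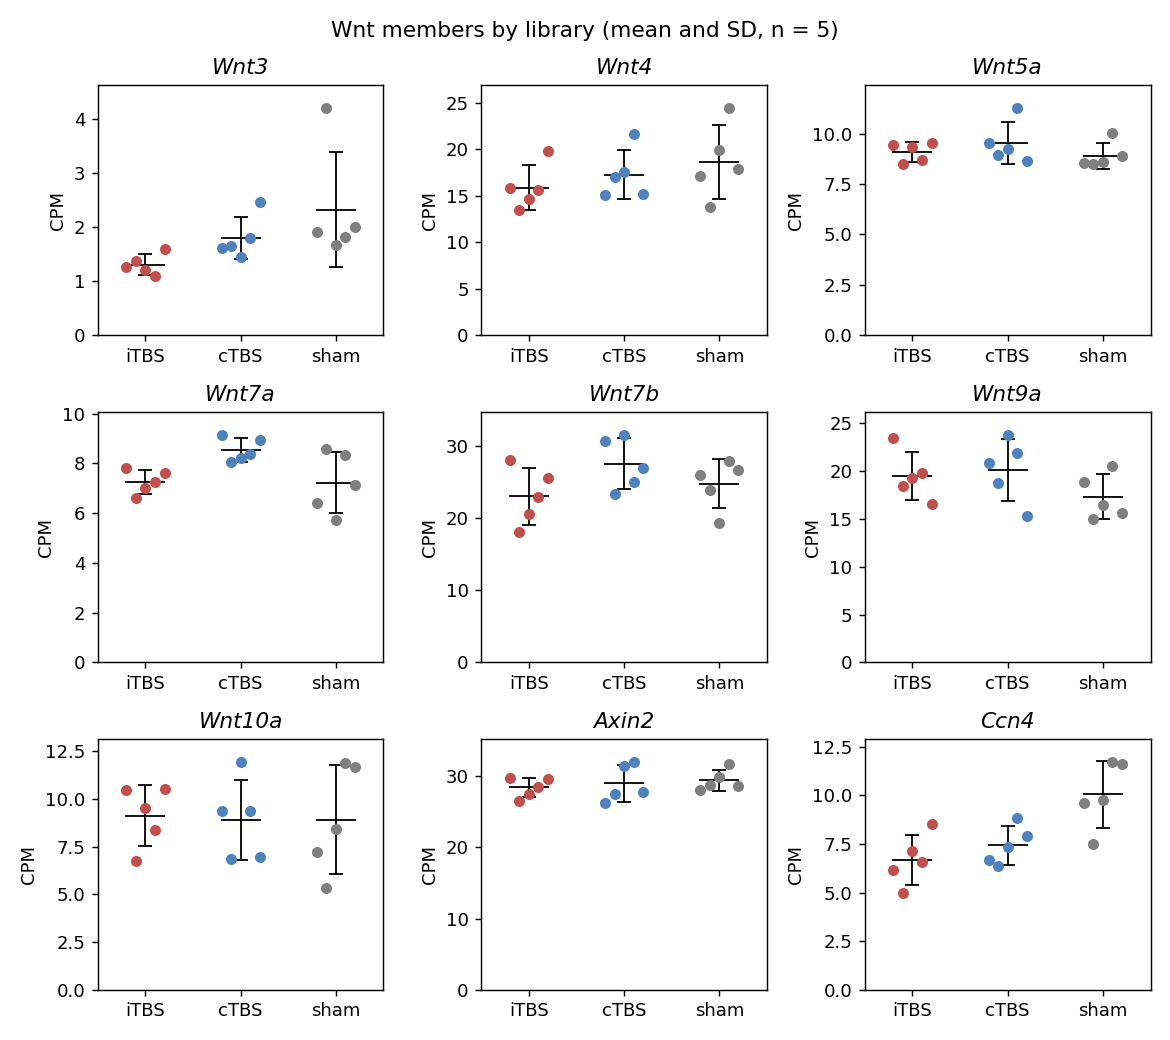
Level of each member (CPM, vertical axis from 0) in the 5 iTBS, 5 cTBS and 5 sham libraries. Points are libraries, the horizontal bar is the mean and the error bar is the SD. Ccn4 in iTBS and cTBS lies below the sham mean in every library, Axin2 lies between 26.2 and 32.01 CPM in all libraries, and 1 sham library stands apart for Wnt3.

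Among the target genes, Ccn4 was lower after both protocols while Axin2 was near its sham level. Ccn4 had 6.18, 5.00, 7.15, 6.59 and 8.52 CPM in iTBS libraries 1 to 5 and 6.67, 6.35, 7.32, 8.86 and 7.92 CPM in cTBS libraries 1 to 5, against 9.61, 7.505, 9.78, 11.7 and 11.6 CPM in sham libraries 1 to 5. Every stimulated library lay below the sham median, and both stimulated groups overlapped with sham at sham 2, the lowest sham library. The log2 fold change was -0.59 ± 0.15 (SE, edgeR) for iTBS against sham (a change of -33.7%) and -0.44 ± 0.15 for cTBS against sham (a change of -26.3%). The 2 comparisons share the sham libraries. For iTBS against cTBS it was -0.15 ± 0.15. Without sham 2, the lowest sham library, the values against sham were -0.68 for iTBS and -0.525 for cTBS. Without sham 4, the highest sham library, they were -0.52 and -0.33. The difference from sham was below 0 in all 29 alternative settings for both protocols. These settings reuse the libraries from which the gene was chosen, so the constant sign adds no support. The difference ran from -0.72 to -0.35 for iTBS against sham and from -0.60 to -0.23 for cTBS against sham. The values nearest 0 were on the compressed scale of the deposited variance-stabilized values.

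Axin2 had 29.8, 26.6, 27.6, 28.5 and 29.7 CPM in iTBS libraries 1 to 5 and 26.2, 27.5, 31.4, 32.01 and 27.8 CPM in cTBS libraries 1 to 5, against 28.1, 28.8, 29.9, 31.8 and 28.6 CPM in sham libraries 1 to 5. The groups overlapped throughout, and the coefficient of variation within a group was 4.88% in iTBS, 8.82% in cTBS and 4.95% in sham. On the log2 scale the fold change was -0.050 ± 0.064 (SE, edgeR) in iTBS relative to sham, -0.023 ± 0.063 in cTBS relative to sham, and -0.027 ± 0.064 in iTBS relative to cTBS. With DESeq2's size factors in edgeR the cTBS value was 0.0094. Its spread within groups was the smallest of the 9 members in iTBS and in sham.

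Promoter sequences are shown for Axin2, the readout of the pathway, and for Wnt3 and Wnt7a, the ligands for which a pair of groups did not overlap. The RefSeq table (build GRCm38.p6, an earlier build than that of the counts) matched 5 of the 9 members, and Ccn4 was not among them. The 250 bases before each transcription start were searched on both strands for the core of TCF and LEF binding sites, CTTTG, printed in capitals where present. It is in 48.6% of 32851 promoters of this length, once in that of Wnt3, and its letters are not in those of Axin2 and Wnt7a.
Axin2 (chr11:108920099-108920348, plus strand): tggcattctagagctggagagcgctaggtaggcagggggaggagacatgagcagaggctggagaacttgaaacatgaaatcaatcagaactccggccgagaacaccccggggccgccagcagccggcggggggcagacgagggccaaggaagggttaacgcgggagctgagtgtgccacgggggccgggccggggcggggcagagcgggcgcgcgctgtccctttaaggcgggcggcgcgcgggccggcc
Wnt3 (chr11:103773925-103774174, plus strand): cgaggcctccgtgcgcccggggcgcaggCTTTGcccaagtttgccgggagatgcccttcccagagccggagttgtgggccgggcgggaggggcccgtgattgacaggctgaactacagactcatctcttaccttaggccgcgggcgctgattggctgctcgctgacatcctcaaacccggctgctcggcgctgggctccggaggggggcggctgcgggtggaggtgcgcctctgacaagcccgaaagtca
Wnt7a (chr6:91411354-91411603, minus strand): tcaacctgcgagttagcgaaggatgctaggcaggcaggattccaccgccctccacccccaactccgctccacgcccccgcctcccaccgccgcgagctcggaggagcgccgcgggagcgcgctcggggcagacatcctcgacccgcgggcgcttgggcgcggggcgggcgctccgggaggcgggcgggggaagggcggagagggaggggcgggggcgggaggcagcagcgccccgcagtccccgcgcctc

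Wnt3, a ligand of the beta-catenin branch, was lower in iTBS than in sham. It had 1.27, 1.38, 1.20, 1.098 and 1.60 CPM in iTBS libraries 1 to 5 and 1.63, 1.66, 1.46, 1.80 and 2.47 CPM in cTBS libraries 1 to 5, against 1.91, 4.22, 1.66, 1.82 and 2.01 CPM in sham libraries 1 to 5. The iTBS libraries all lay below the sham libraries. Wnt3 was the 1 of 9 members without overlap in that direction, which 0.209% of all tested genes showed. The log2 fold change was -0.82 ± 0.25 (SE, edgeR) in iTBS relative to sham, -0.36 ± 0.24 in cTBS relative to sham, and -0.46 ± 0.25 in iTBS relative to cTBS. Sham 2, at 4.22 CPM, stood above the next sham library at 2.01 CPM and was also the library highest in all 9 thalamic markers. Without sham 2 the value was -0.50 for iTBS against sham and -0.038 for cTBS against sham. With the thalamic marker level as a covariate it was -0.47 and -0.20. With the level of striatal neuron markers as the covariate instead, it was -0.91 and -0.63. With group means removed, the 15 libraries gave a Pearson r of 0.784 between Wnt3 and the thalamic level (permutation p = 0.00731; 0.0511 after adjustment over 45 relations). Spearman's rho was 0.518 (permutation p = 0.0508). Leaving out sham 1 and sham 2, whose deviations from their group mean were the farthest from the median, gave r = 0.323. The relation therefore weakens without this pair. Sham 1 was not extreme in the thalamic level itself, and iTBS 3 was lower. Its deviation is taken from a sham mean of 4.51 that includes sham 2 at 5.68 (log2 CPM). The r without sham 2 alone was not computed. With the striatal level Wnt3 had r = 0.648 (permutation p = 0.00588, adjusted p = 0.0511) and rho = 0.696 (permutation p = 0.00522). Without cTBS 3 and sham 2 that r was 0.488 (permutation p = 0.0897). The part of either tissue in the Wnt3 difference was not tested.

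**Figure D2:**
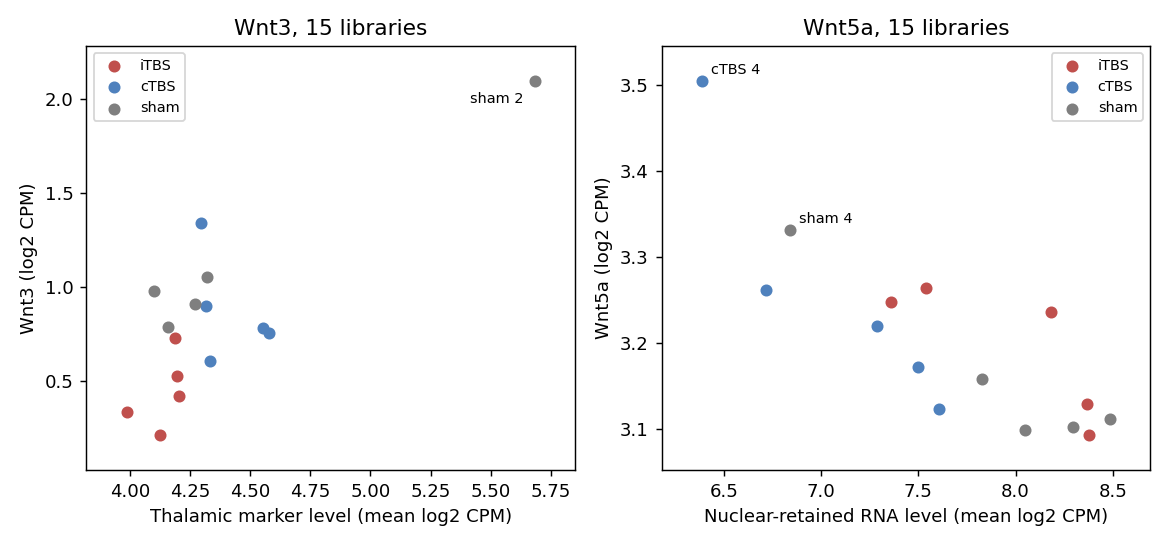
Left, Wnt3 against the thalamic marker level; right, Wnt5a against the level of nuclear-retained RNAs, each axis in log2 CPM and each point 1 of 15 libraries coloured by group (iTBS, cTBS, sham). Sham 2 stands alone at the upper right of the Wnt3 panel, and Wnt5a is highest in cTBS 4 and sham 4, which are low in nuclear-retained RNA.

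Wnt7a and Wnt7b, the ligands that act on brain endothelium, averaged higher in cTBS than in iTBS and sham. Wnt7a had 7.81, 6.62, 7.02, 7.24 and 7.63 CPM in iTBS libraries 1 to 5, against 9.14, 8.06, 8.22, 8.37 and 8.93 CPM in cTBS libraries 1 to 5. The iTBS libraries all lay below the cTBS libraries, the 1 case of this among the 9 members, against 1.7% of all tested genes. Sham libraries spanned both groups, with 6.40, 8.59, 5.72, 8.32 and 7.12 CPM in sham 1 to 5. The log2 fold change of Wnt7a was 0.0034 ± 0.11 (SE, edgeR) in iTBS relative to sham, 0.24 ± 0.11 in cTBS relative to sham, and -0.23 ± 0.11 in iTBS relative to cTBS. Nuclear-retained RNA was lowest in cTBS, as given above. With its level as a covariate the Wnt7a value was 0.11 in cTBS relative to sham, and -0.097 in iTBS relative to cTBS, and its part in the difference was not tested. Markers of several cell types were also higher in cTBS. Oligodendrocyte markers were at 6.93 ± 0.20 in iTBS, 7.20 ± 0.18 in cTBS and 6.99 ± 0.20 in sham (log2 CPM, SD, n = 5 each). Microglial markers were at 4.202 ± 0.13 in iTBS, 4.38 ± 0.09 in cTBS and 4.21 ± 0.11 in sham. Interneuron markers were at 6.49 ± 0.09 in iTBS, 6.64 ± 0.11 in cTBS and 6.46 ± 0.17 in sham. In this list Gad1, Gad2, Slc32a1, Sst, Vip and Npy had their highest mean in cTBS. Pvalb (45.9, 44.6 and 42.7 CPM in iTBS, cTBS and sham) and Lamp5 (166, 161 and 154 CPM) were lower in cTBS than in iTBS. Striatal markers were highest in cTBS too, at 4.24 ± 0.69 in iTBS, 4.79 ± 0.73 in cTBS and 3.85 ± 0.98 in sham. Astrocyte markers were at 6.85 ± 0.17 in iTBS, 7.01 ± 0.11 in cTBS and 6.88 ± 0.11 in sham. Markers of oligodendrocyte precursors were at 4.15 ± 0.09 in iTBS, 4.23 ± 0.07 in cTBS and 4.11 ± 0.07 in sham. Endothelial and mural markers were not higher in cTBS, at 3.78 ± 0.05 in iTBS, 3.65 ± 0.13 in cTBS and 3.69 ± 0.10 in sham. The part of these cell types in the Wnt7a and Wnt7b differences was not tested.

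Wnt7b had 28.0, 18.0, 20.6, 22.9 and 25.5 CPM in iTBS libraries 1 to 5 and 30.7, 23.4, 31.5, 25.0 and 26.9 CPM in cTBS libraries 1 to 5, against 25.98, 23.9, 19.3, 27.9 and 26.7 CPM in sham libraries 1 to 5. The groups overlapped in each comparison. Its log2 fold change was -0.11 ± 0.12 (SE, edgeR) in iTBS relative to sham, 0.15 ± 0.12 in cTBS relative to sham, and -0.25 ± 0.12 in iTBS relative to cTBS. With the nuclear-retained RNA level as a covariate these were -0.093, -0.019 and -0.074.

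Wnt5a, which signals mainly outside the beta-catenin branch, differed little between groups. It ran from 8.47 to 9.54 CPM in iTBS (median 9.36), from 8.66 to 11.3 CPM in cTBS (median 9.25) and from 8.51 to 10.01 CPM in sham (median 8.58). Its log2 fold change was 0.029 ± 0.086 (SE, edgeR) in iTBS relative to sham, 0.098 ± 0.085 in cTBS relative to sham, and -0.069 ± 0.085 in iTBS relative to cTBS. Within groups it followed the nuclear-retained RNA level inversely. With group means removed, r over the 15 libraries was -0.873 (Pearson, permutation p = 3e-05; 0.00135 after adjustment over 45 relations). Spearman's rho was -0.857 (permutation p = 7e-05; adjusted 0.00315). Without cTBS 4 and sham 4, r was -0.812 (permutation p = 0.00103, adjusted p = 0.0463). Of the 9 members 8 had an r below 0 with this level, from -0.873 to -0.467, and Wnt5a was the 1 member that passed. Over all tested genes 47.6% had an r below 0 with it, and 57.7% of those with a mean of at least 1 CPM. An r of -0.467 or lower was found in 24.3% of all tested genes, and nothing particular to the Wnt genes is read from the count. An r of -0.873 or lower, as for Wnt5a, was found in 1.1% of all tested genes. Among those with a mean of at least 1 CPM the share was 1.5%. Wnt5a also had r = 0.768 with the meningeal fibroblast level (permutation p = 0.00183, adjusted p = 0.0393; rho = 0.614, permutation p = 0.0172). Without cTBS 4 and sham 4 that r was 0.332 (permutation p = 0.267), so this relation rests on those libraries.

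The remaining ligands, Wnt4, Wnt9a and Wnt10a, overlapped between groups in every comparison. Wnt4, known for its roles in kidney and gonad development, ran from 13.5 to 19.8 CPM in iTBS, from 15.04 to 21.6 CPM in cTBS and from 13.8 to 24.5 CPM in sham. Its log2 fold change was -0.23 ± 0.14 (SE, edgeR) in iTBS relative to sham, -0.11 ± 0.14 in cTBS relative to sham, and -0.12 ± 0.14 in iTBS relative to cTBS. Without sham 4, its highest library, the first of these was -0.094 and the second was 0.060. Wnt9a ran from 16.5 to 23.4 CPM in iTBS, from 15.3 to 23.8 CPM in cTBS and from 15.01 to 20.5 CPM in sham, and all iTBS libraries lay above the sham median. Its log2 fold change was 0.17 ± 0.12 in iTBS relative to sham, 0.21 ± 0.12 in cTBS relative to sham, and -0.041 ± 0.12 in iTBS relative to cTBS. With the meningeal marker level as a covariate the first was -0.029 and the second 0.027.

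Wnt10a, best known from tooth and hair development, had a coefficient of variation of 17.6% in iTBS, 23.5% in cTBS and 31.95% in sham. It ran from 6.74 to 10.5 CPM in iTBS, from 6.87 to 11.9 CPM in cTBS and from 5.34 to 11.9 CPM in sham. Relative differences were close to 0, with a log2 fold change of 0.027 ± 0.21 (SE, edgeR) in iTBS relative to sham, -0.0093 ± 0.21 in cTBS relative to sham, and 0.037 ± 0.21 in iTBS relative to cTBS. Within groups Wnt10a was lower where striatal neuron markers were higher. With group means removed, r over the 15 libraries was -0.722 (Pearson, permutation p = 0.00262; 0.0393 after adjustment over 45 relations). Spearman's rho was -0.654 (permutation p = 0.0102; adjusted 0.0686). Without cTBS 3 and sham 2, r was -0.565 (permutation p = 0.0456, adjusted p = 0.343). Striatal markers, all 16 of them present in every library, had mean levels of 4.24 ± 0.69 in iTBS, 4.79 ± 0.73 in cTBS and 3.85 ± 0.98 in sham (log2 CPM, SD, n = 5 each). With the striatal level as a covariate, Wnt10a was at 0.33 in cTBS relative to sham, and -0.14 in iTBS relative to cTBS. With the nuclear-retained RNA level instead, these were -0.30 and 0.37. The cTBS value changed sign in 18 of 29 alternatives, so no direction is given for it.

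**Figure D3:**
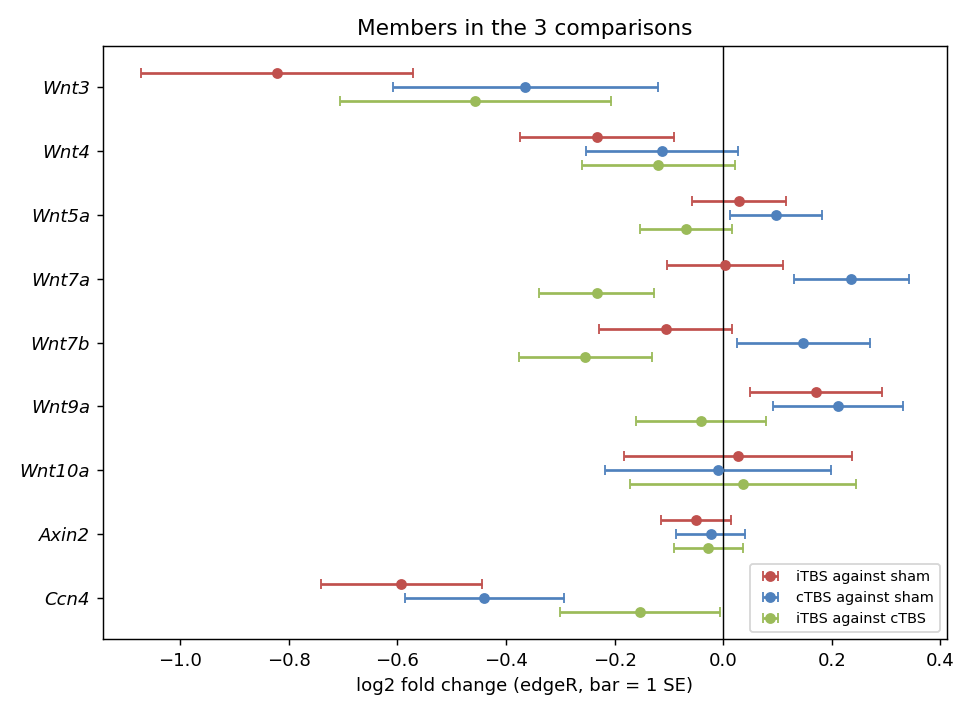
Log2 fold change of each member (horizontal axis, points with 1 SE from edgeR) in iTBS relative to sham, in cTBS relative to sham and in iTBS relative to cTBS. Ccn4 and Wnt3 lie furthest below 0 against sham, Axin2 lies within 0.050 of 0 in all comparisons, and Wnt7a and Wnt7b lie above 0 for cTBS against sham.

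Genes with a like pattern across libraries were looked for among all tested genes. Over log2 CPM in 15 libraries, the genes outside the list whose pattern was most like that of Axin2 were Pias3 (Pearson r = 0.895), Gm9899 (0.855), Epc2 (0.850), Tpm3 (0.834) and Mapk10 (0.834). Those most like the mean standardized level of the 9 members were Fam53c (0.947), Trmt112-ps2 (0.925), Arnt2 (0.924), Ssbp3 (0.923) and Twf2 (0.923). All values of a library share its depth and RNA composition, and these genes were the highest of all tested genes with a mean of at least 1 CPM, so the values are descriptive and carry no p.

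The other genes of the pathway were taken from lists by role, 142 symbols in all, of which 124 were tested. For iTBS against sham 0 of 124 passed (edgeR, smallest adjusted p = 1), and DESeq2 and limma-voom called 0 too. At an unadjusted p of 0.05 there were 2 higher and 4 lower, 6 in all, and all tested genes showed 0.952% higher and 0.974% lower. The median log2 fold change was 0.0095, against -0.001 over all tested genes. Of the 12 other ligand genes, 7 were tested, and Wnt3a was at 0 or 1 count in each library.

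In that comparison the named gene furthest from 0 was a nuclear effector, and its value rested on sham 2. Tcf7l2, a TCF factor also abundant in thalamus, was at 9.94 ± 0.77 CPM in iTBS and 17.6 ± 16.8 CPM in sham (log2 fold change -0.82 ± 0.37, SE), and Lef1 was at -0.40 ± 0.23. Without sham 2, Tcf7l2 was at -0.025 and Lef1 at -0.045. Vangl1, a planar polarity protein, was at -0.36 ± 0.19, and at -0.11 without sham 2, while its relative Vangl2 was at 0.12 ± 0.07 and Nfatc3, a calcium-regulated factor, at 0.14 ± 0.06. Tcf7 was at 0.21 ± 0.19. Among receptors, the log2 fold change was -0.30 ± 0.13 for Fzd1, -0.23 ± 0.11 for Fzd4, which pairs with LRP co-receptors on endothelium, and 0.16 ± 0.09 for Lrp5. In the destruction complex Axin1 was at -0.17 ± 0.06 and Amer1, which binds APC, at 0.10 ± 0.06, and Dact2, a Dishevelled-binding protein, was at 0.26 ± 0.12.

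Outside the signalling core, Notum, the enzyme that removes the lipid of Wnt proteins, was at a log2 fold change of 0.43 ± 0.22 (SE, edgeR) for iTBS against sham. Wls, which carries Wnt proteins to the cell surface, was at 0.055 ± 0.07 and the retromer subunit Vps26a at -0.072 ± 0.09. Among ligands Wnt5b was at -0.39 ± 0.24, Wnt2b at 0.21 ± 0.13 and Wnt16 at -0.19 ± 0.19. The R-spondin receptors Lgr4 and Lgr5 were at 0.075 ± 0.07 and -0.11 ± 0.17 and the ligand Rspo1 at 0.12 ± 0.20. Without sham 2, Lgr5 was at -0.031 and Rspo1 at -0.015. The secreted inhibitors Sfrp4 and Frzb were at 0.27 ± 0.23 and 0.11 ± 0.12, and Kremen1, a receptor of Dickkopf inhibitors, at 0.052 ± 0.09, or -0.017 without sham 3. The candidate targets Ccn1, Ccn2 and Nkd1 were at 0.45 ± 0.24, -0.26 ± 0.13 and 0.14 ± 0.08. Ccn1 and Ccn2 encode relatives of the Ccn4 protein. Leaving out 1 library moved 46 of the 81 named pathway values over the 3 comparisons by more than 1.5 times, and 2 of them, Rspo1 and Kremen1 in iTBS relative to sham, changed sign.

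**Figure D4:**
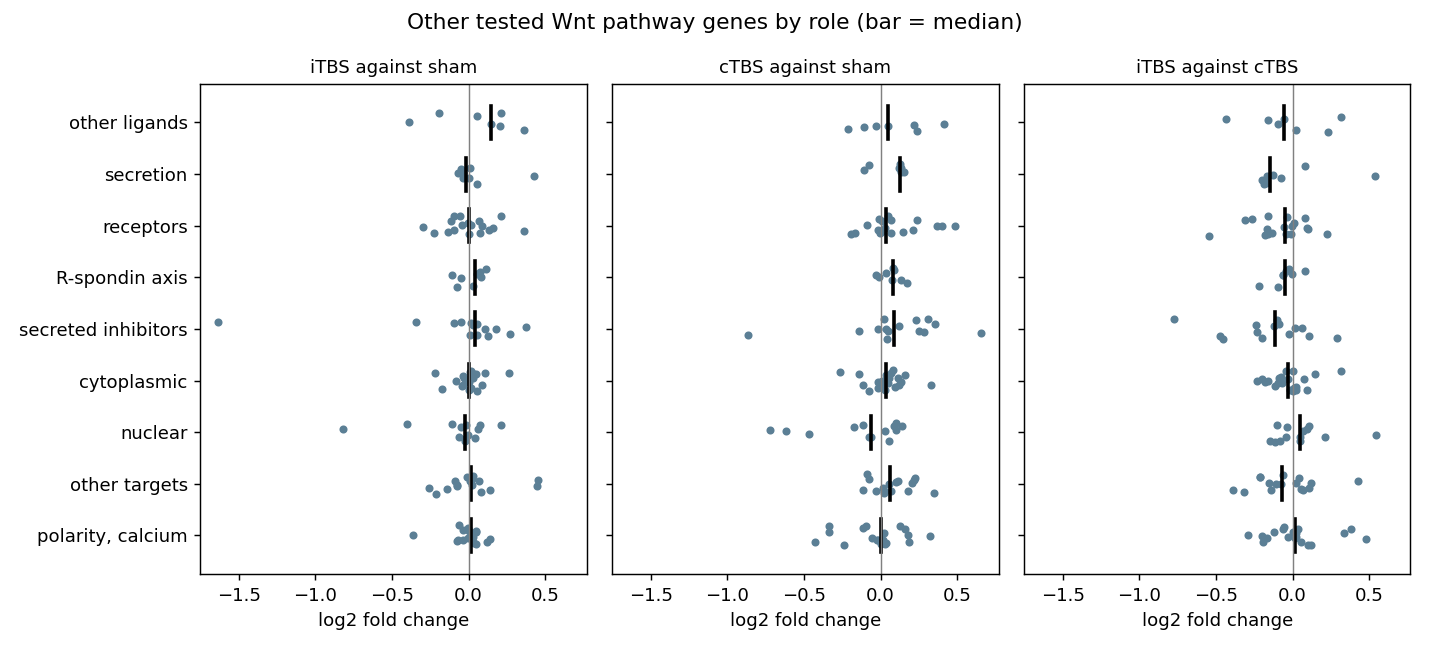
Log2 fold change (horizontal axis, edgeR) of the 124 tested pathway genes that are no members, by role, in iTBS relative to sham, in cTBS relative to sham and in iTBS relative to cTBS. Each point is a gene, vertical scatter has no meaning and the bar is the median of the role. Medians lie between -0.15 and 0.15, and the inhibitor furthest below 0 for iTBS against sham is Sostdc1 (-1.64 ± 0.66, SE), also a choroid plexus gene, chosen after its value was seen.

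For cTBS against sham 0 of 124 pathway genes passed (edgeR, smallest adjusted p = 0.144). DESeq2 called 0, and limma-voom with quality weights called 12 (8 higher, 4 lower), which is 9.68% of the list. The same tool called 23.7% of all tested genes (1569 higher, 3892 lower). At an unadjusted p of 0.05 there were 9 higher and 3 lower, 12 in all. Over all tested genes 6.8% were higher and 17.6% lower at that p. Among the 16883 with a mean of at least 1 CPM, 1514 were higher and 2406 lower. The median log2 fold change was 0.040, against -0.023 over all tested genes and 0.023 over those with a mean of at least 1 CPM. Without sham 4 edgeR called 14 of them (12 higher, 2 lower), beside 5726 of all genes (2145 higher, 3581 lower).

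Among the named genes, Fzd5 had the highest log2 fold change for cTBS against sham and Lef1 the lowest. Fzd5, a Frizzled receptor, was at 3.27 ± 0.46 CPM in cTBS and 2.33 ± 0.57 CPM in sham (0.49 ± 0.18, SE), while Fzd10 was at 0.40 ± 0.28 and Fzd4 at -0.19 ± 0.11. Fzd10 was at 0.69 without sham 2 and 0.25 without sham 3, and Fzd4 at -0.063 without sham 4. Lef1 was at -0.62 ± 0.23, and at -0.26 without sham 2. The Groucho corepressor Tle2 was at -0.47 ± 0.21 and its relative Tle4 at 0.14 ± 0.06. The cTBS and sham libraries did not overlap for Tle4, nor for Vangl2 (0.18 ± 0.07), 2 higher genes of 124 against 0.626% of all tested genes. The polarity cadherin Celsr3 was at -0.43 ± 0.16 and the calcium-dependent kinase subunit Camk2b at 0.18 ± 0.08. Dact2 was at 68.0 ± 9.92 CPM in cTBS and 54.0 ± 9.01 CPM in sham (0.33 ± 0.12), the kinase gene Gsk3a at 0.16 ± 0.07 and Apc2 at 0.13 ± 0.08.

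Among the other ligands, Wnt2, Wnt1 and Wnt16 were at 0.22 ± 0.17, 0.24 ± 0.19 and -0.22 ± 0.19 (log2 fold change of cTBS against sham, SE). They were at 0.10 for Wnt2 without cTBS 2, 0.13 for Wnt1 without sham 2 and -0.078 for Wnt16 without cTBS 4. Wnt16 had a low mean of 1.07 CPM over all libraries. In secretion, Tmed2, a cargo receptor of the early secretory pathway, was at 0.15 ± 0.08, Wls at 0.13 ± 0.07 and the retromer subunit Vps35 at 0.12 ± 0.07. Lgr4 was at 0.13 ± 0.07, Rspo3 at 0.17 ± 0.11 and Znrf3, a ligase that removes Frizzled receptors, at 0.091 ± 0.07. The inhibitors Sfrp1, Frzb and Dkk3 were at 0.25 ± 0.12, 0.23 ± 0.12 and 0.12 ± 0.13. The targets Id2, Jun and Nkd1 were at 0.22 ± 0.10, 0.20 ± 0.10 and 0.12 ± 0.08, and 1 of 16 tested target genes, Id2, had an unadjusted p under 0.05 (edgeR adjusted p = 0.201).

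For iTBS against cTBS 0 of 124 pathway genes passed (edgeR, smallest adjusted p = 0.0838), against 4 with DESeq2 (3.23%) and 15 with limma-voom (12.1%). Over all tested genes DESeq2 called 11.4% and limma-voom 29.8%. The lists were chosen with earlier results of these data known and leave out the members, so nothing is read from these shares. At an unadjusted p of 0.05 there were 4 higher and 12 lower, 16 in all. Over all tested genes 20% were higher and 10.6% lower at that p. Among the 16883 with a mean of at least 1 CPM, 2699 were higher and 2382 lower. The median log2 fold change of the pathway genes was -0.045, against 0.027 over all tested genes. Over those with a mean of at least 1 CPM it was -0.027. The gene with the smallest p was Axin1, the constitutive scaffold of the destruction complex and relative of Axin2. It was at 21.7 ± 1.17 CPM in iTBS and 25.4 ± 1.74 CPM in cTBS (log2 fold change -0.23 ± 0.06, SE, edgeR adjusted p = 0.0838), without overlap between the groups, as for 1.7% of all tested genes in this direction. Ctnnb1, which encodes beta-catenin, was at 183 ± 13.6 CPM in iTBS and 207 ± 10.1 CPM in cTBS (-0.18 ± 0.06), and Gsk3a was at -0.20 ± 0.07.

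Fzd5 was at -0.54 ± 0.18, Fzd7 at -0.27 ± 0.11 and Fzd2 at -0.18 ± 0.10 (log2 fold change of iTBS against cTBS, SE). Wnt2b was at 7.80 ± 1.26 CPM in iTBS and 6.22 ± 0.37 CPM in cTBS (0.32 ± 0.13), without overlap, as for 2.22% of all tested genes in this direction. Wnt5b was at -0.44 ± 0.24 and Wnt2 at -0.16 ± 0.17. Notum was at 0.54 ± 0.22, Tmed2 at -0.19 ± 0.08 and Vps35 at -0.17 ± 0.07. Tle2 was at 0.55 ± 0.21, Pygo1, a beta-catenin cofactor, at -0.15 ± 0.07 and the chromatin remodeller Chd8 at 0.096 ± 0.07. Celsr3 was at 0.48 ± 0.16, and the small GTPase genes Rhoa and Rac1 were at -0.19 ± 0.08 and -0.20 ± 0.09. Rspo3, Lgr4 and Znrf3 were at -0.22 ± 0.11, -0.059 ± 0.07 and -0.062 ± 0.07. The inhibitors Sfrp1, Sfrp4 and Frzb were at -0.24 ± 0.12, 0.29 ± 0.23 and -0.12 ± 0.11, and the targets Ccn2, Jun and Id2 at -0.32 ± 0.13, -0.21 ± 0.10 and -0.21 ± 0.10.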

How the data were processed

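Gene counts from 15 libraries, 1 per animal, were analysed. The authors deposited raw counts per Ensembl gene, not normalized, and a variance-stabilized table (log2 scale) that covers 45315 genes. The tools named per the submitters' processing notes are fastp, STAR and DESeq2, and the build is GRCm39 (mm39). How each was run, the read counter, the annotation and the strand setting were not stated there. Per the labels' protocols, libraries were stranded total RNA after ribosomal RNA depletion, so unspliced and nuclear RNA is included.

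Symbols were matched by Ensembl identifier for 52073 of 56748 genes. Exon lengths came from GENCODE M21 (an earlier build), as lengths only. A quasi-likelihood model in edgeR 4.0.16 (R 4.3.3) was fitted to all 15 libraries with a term per group, TMM scaling and the default filter, which kept 22998 genes and 99.9% of counts. Benjamini-Hochberg adjustment ran over all tested genes, with a threshold of 0.05. Each SE is the absolute log2 fold change over the root of its F statistic. CPM used TMM-scaled library sizes, and log2 CPM a prior count of 2.

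The members and gene lists were chosen with earlier results of these data known. Of the pathway lists, the 3 genes per role with the smallest p and a mean of at least 1 CPM were named in each comparison. Patterns were compared by Pearson r over 15 libraries. Relations of the 9 members to 5 library levels (45 in all) were tested over deviations from group means by two-sided permutation with 100000 resamples. DESeq2 1.42.0, limma 3.58.1 (voom with quality weights, and trend on the deposited values) and other scalings, filters, covariates and left-out libraries were alternatives.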

Additional observations from a re-analysis of the deposited data

Results flagged for a closer look

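In 27 groups of 5 libraries (9 members in 3 groups), the highest or lowest library stood apart by Dixon's test in 2 cases, and chance gives about 1 in 20 groups. Wnt3 in sham 2 was at 4.216 CPM, and the next sham library was at 2.01 CPM. Sham 2 was also the library highest in all 9 thalamic markers. Wnt5a in sham 4 was at 10.01 CPM, and the next sham library was at 8.87 CPM. Sham 4 had the lowest nuclear-retained RNA level of the sham libraries, 6.84 (log2 CPM).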

How the results depend on the processing

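Of 783 values of the 9 members under 29 alternatives, 770 lay within 1 SD of the reported value and 72 changed sign, and none was tested. The SD is that of log2 CPM between libraries, pooled over the 2 compared groups, so it can be wide. For Wnt3 in cTBS against sham it was 0.42, against an SE of 0.24. A change there from -0.36 to 0.057 (without the 3 libraries highest in choroid plexus markers) counted as within it. The count of 770 is therefore not a measure of stability. For iTBS against sham, 0 genes and 0 pathway genes were called in all 29. For cTBS against sham, 132 genes were called with DESeq2 and 5461 with limma-voom, and 0 to 5726 with each library left out, the highest without sham 4 and 1 gene without iTBS 1. Pathway genes called numbered 12 with limma-voom and 0 to 14 with each library left out, the highest without sham 4. For iTBS against cTBS, 2618 genes were called with DESeq2, 6853 with limma-voom and 4875 with the meningeal level as a covariate (added after the data were seen). With each library left out 0 to 4474 were called, with 4474 without iTBS 1, 3637 without sham 4 and 3380 without cTBS 5. Pathway genes called numbered 4 with DESeq2, 15 with limma-voom and 5 with the meningeal level, and 0 to 11 with each library left out (11 without iTBS 1, 5 without sham 4, 5 without cTBS 5). The cause was not tested. Of the 3 relations past the threshold, 1 passed by Spearman rho and 1 without the 2 farthest libraries. Of 2349 values of the named pathway genes, 61 passed the threshold and 34 changed sign.

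Replicate numbers are shared between groups in the labels. Deviations of same-numbered libraries had a mean r of 0.0529 (from -0.682 to 0.795), against -0.00816 for other pairs between groups (from -0.83 to 0.807). An r over 0.1 was found in 8 of 15 same-numbered pairs and in 23 of 60 other pairs. The closest library carried the same number for 6 of 15 libraries. Whether the numbers mark a pairing was not tested. With the replicate block, 5 genes were called for iTBS against cTBS (1 higher, 4 lower), and the other counts of called genes did not move. Depth limits Wnt3 most, at 19 to 109 counts per library.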
